A study of Mus musculus with 3 samples.

Results

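The 47 genes described here encode the proteins that mark replication origins, load and start the replicative helicase and copy DNA at the fork, together with 4 enzymes that supply deoxynucleotides. They were taken by name from 21938 protein-coding genes and judged by ATAC-seq, which marks accessible DNA by the places where a transposase can cut and tag it. A gene was counted as open when a peak overlapped by at least 1 bp a promoter window from 2000 bp before to 200 bp after any of its annotated transcription starts. The lines were mouse pre/pro-B cells grown from C57BL/6 bone marrow after retroviral transduction with BCR-ABL(p185), which all 4 lines carried. The WT lines had wildtype *Cdk6* on both copies (*Cdk6*+/+) and the K43M lines had the kinase-inactive allele on both copies (*Cdk6* KM/KM), with 2 lines per genotype and 1 peak list per line. The lists are called WT unnumbered, WT 2, K43M 1 and K43M 2, and values are given in that order unless stated. WT unnumbered has no labelled sample of its own and was placed with the wildtype lines from the design text of the series. According to that text, the first wildtype line had been deposited before and was reanalysed here. Any difference of experiment between this list and the others was not tested. Each line is a separate transformed population carrying an oncogene, so differences between 2 lines of a genotype include differences between transformations.

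The lists held 33038 to 39038 peaks covering 17.2 to 19.8 Mb. Read totals were not among the values used. The summit pileup, the number of transposase read ends extended over the highest base of a peak, served as a rough guide to depth. It also depends on how open the promoters are, so depth itself was not measured. Its median over the 47 genes was 68, 62, 65 and 57.5, and over 10411 genes with a promoter peak in every list 58, 53, 57 and 47. Of 10 B-lineage marker genes, 7 had a promoter peak in all 4 lists, *Cd79b* and *Rag1* in 3 lists, and *Dntt* in none. Of 18 markers of other blood cells and tissues, only *Lck* had one in all 4 lists, *Cebpe* in 3 and *Gfap* in 1, and 15 had none in any list. *Cdk6* itself had a promoter peak in all 4 lists, at fold enrichments of 3.74, 3.64, 5.28 and 3.86. A substitution in the protein leaves the promoter in place, so these values say nothing about the genotype labels.

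In the G1 phase of the cell cycle, the origin recognition complex and Cdc6 with Cdt1 load the Mcm2 to Mcm7 helicase onto DNA, a step called licensing. Cdc7 with Dbf4 and the cyclin-dependent kinases then start the helicase with Cdc45 and the GINS complex, and polymerases alpha, delta and epsilon copy the strands with the sliding clamp PCNA. Many of these genes are classical targets of E2F transcription factors, which the retinoblastoma protein holds back until it is phosphorylated by cyclin-dependent kinases such as CDK4 and CDK6.

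The promoters of 5 genes are printed first because they held the most E2F matches of the 39 members found in the RefSeq promoter table of build GRCm38.p6, with ties broken by the within-list percentile of their peaks. Each runs 5′ to 3′ on the strand of the gene, from 250 bases before to 50 bases after the RefSeq transcription start. Capitals mark matches to TTTCCCGC, TTTGGCGC, TTTCGCGC or TTTGCCGC on either strand, and overlapping matches form 1 longer run. *Mcm6* (chr1:128359656-128359955, minus strand), *Mcm3* (chr1:20820263-20820562, minus strand), *Mcm5* (chr8:75109259-75109558, plus strand) and *Mcm7* (chr5:138171834-138172133, minus strand) encode helicase subunits. *Rfc3* (chr5:151651159-151651458, minus strand) encodes a subunit of the clamp loader.
Mcm6: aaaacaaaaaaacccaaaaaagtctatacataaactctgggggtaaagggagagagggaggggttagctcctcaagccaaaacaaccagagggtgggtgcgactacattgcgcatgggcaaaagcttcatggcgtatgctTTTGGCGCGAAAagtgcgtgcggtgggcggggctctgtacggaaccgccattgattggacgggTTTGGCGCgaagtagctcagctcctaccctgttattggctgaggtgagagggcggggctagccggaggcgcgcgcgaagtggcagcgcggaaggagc
Mcm3: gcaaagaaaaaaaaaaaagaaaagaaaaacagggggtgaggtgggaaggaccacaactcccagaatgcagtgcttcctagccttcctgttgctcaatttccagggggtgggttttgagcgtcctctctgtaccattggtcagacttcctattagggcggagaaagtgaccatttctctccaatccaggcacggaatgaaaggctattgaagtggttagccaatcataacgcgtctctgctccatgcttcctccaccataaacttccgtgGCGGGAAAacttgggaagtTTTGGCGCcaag
Rfc3: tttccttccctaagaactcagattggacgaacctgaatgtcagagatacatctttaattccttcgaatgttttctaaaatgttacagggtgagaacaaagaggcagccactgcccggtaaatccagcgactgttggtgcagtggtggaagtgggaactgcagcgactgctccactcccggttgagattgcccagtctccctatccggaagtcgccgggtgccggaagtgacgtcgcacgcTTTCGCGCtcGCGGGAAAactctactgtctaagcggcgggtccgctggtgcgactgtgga
Mcm5: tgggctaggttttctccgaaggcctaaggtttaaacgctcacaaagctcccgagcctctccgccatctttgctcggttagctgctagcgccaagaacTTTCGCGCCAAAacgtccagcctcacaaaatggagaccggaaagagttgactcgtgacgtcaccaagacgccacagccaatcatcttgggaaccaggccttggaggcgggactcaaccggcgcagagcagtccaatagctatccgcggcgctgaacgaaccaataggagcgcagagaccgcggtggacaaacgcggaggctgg
Mcm7: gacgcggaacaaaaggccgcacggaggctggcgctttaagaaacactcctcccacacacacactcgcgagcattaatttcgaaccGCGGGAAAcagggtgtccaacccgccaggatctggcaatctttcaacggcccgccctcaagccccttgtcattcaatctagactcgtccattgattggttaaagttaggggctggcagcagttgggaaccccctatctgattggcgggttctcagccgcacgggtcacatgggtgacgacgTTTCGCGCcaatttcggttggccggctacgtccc

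*Mcm6* held 3 matches, the first bases of which lay 110, 106 and 47 bp before the start. *Mcm3* held its 2 matches 19 and 38 bp after the start, and *Rfc3* 1 match 10 bp before it and 1 at the start itself. The overlapping pair in *Mcm5* began 153 and 149 bp before the start, and the pair in *Mcm7* lay 165 bp before and 16 bp after it. Peaks covered all 300 printed bases of *Mcm6*, *Mcm3*, *Mcm5* and *Mcm7* in every list and at least 291 bases of *Rfc3*.

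Nearly every replication gene had an open promoter in every line. In the order of the lists, 47, 47, 47 and 46 of the 47 genes had a promoter peak, so that 46 (97.9%) had one in all 4 lists, against 47.6% of the 21938 protein-coding genes. No member was open in both WT lists only (0.515% of all genes) or in both K43M lists only (2.00% of all genes). The exception was *Tk1*, thymidine kinase of the salvage pathway, which had no window peak in K43M 2.

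The *Tk1* peak was weak wherever it was found, with a fold enrichment of 5.56 in WT unnumbered, 6.78 in WT 2 and 6.19 in K43M 1. Fold enrichment is the authors' ratio of the summit pileup to the background around it in the same library. That background includes the reads of the peak itself, so it is not an independent level of the surroundings. In K43M 2 the nearest peak had its summit 519 bp after a start of *Tk1*, with a fold enrichment of 4.72. The K43M 1 peak, which still reached into the window, also had its summit downstream, at 536 bp, whereas the WT summits lay 8 bp before and 6 bp after a start. With windows of 500 bp on either side of each start, *Tk1* had a peak in all 4 lists. Its absence from K43M 2 therefore follows the edge of the window, and the region was called in every list.

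The promoter peaks of the replication genes stood high in their lists. Levels are given as percentiles of fold enrichment among all peaks of a list, so that lists of different size can be set side by side. The median percentile of the 46 genes was 87.3, 89.96, 86.9 and 89.7, and that of all 10446 genes with a promoter peak in every list was 78.6, 80.1, 81.2 and 80.4. Of the 46 genes, 14 (30.4%) were in the upper 10% of all 4 lists, against 13.7% of the 10446 genes. The 14 include *Lig1*, although no single start region of that gene reached the upper 10% in every list. In bulk libraries, more cells with an open promoter and a more open promoter in each cell cannot be told apart.

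**Figure D1:**
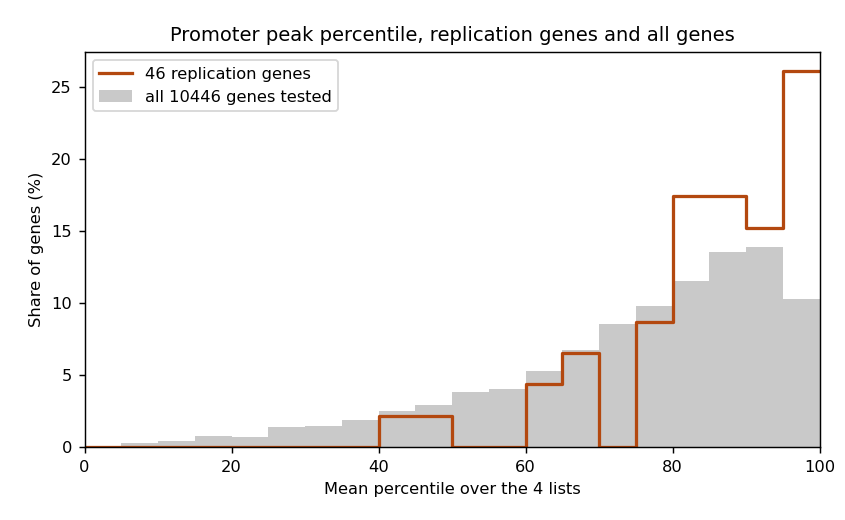
Share of genes (vertical axis, percent) in each 5-percentile bin of the mean percentile of the highest promoter peak over the 4 lists (horizontal axis). Grey bars are all 10446 genes with a promoter peak in every list and the line is the 46 replication genes, of which 12 (26.1%) fell in the highest bin against 10.3% of all genes. The 12 include *Lig1*, whose value joins peaks at different starts.

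The 6 subunits of the origin recognition complex, which binds origins and recruits the loading factors, had a median of their mean percentiles of 94.8. *Orc5* was the highest, with fold enrichments of 13.1, 12.2, 14.7 and 13.2 and a mean percentile of 95.7 ± 2.43 (SD, n = 4 lists). *Orc4* was the lowest, at 9.63, 12.7, 10.8 and 11.9 and a mean percentile of 86.6 ± 8.38. The lists of *Orc4* spread most within the wildtype lines, and the other subunits lay between these values. *Orc2* and *Orc3* had mean percentiles of 95.6 and 95.4, which differed from *Orc5* by less than the spread over lists.

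Among the licensing genes, *Cdc6*, which brings the helicase to the origin recognition complex, had fold enrichments of 15.2, 15.7, 15.6 and 16.4. Its mean percentile was 99.4 ± 0.308, and every list placed it in the upper 1% of its peaks. Its partner *Cdt1* was lower, at 9.64, 8.71, 10.5 and 9.87, with a mean percentile of 77.3 ± 5.66. Geminin (*Gmnn*), the inhibitor of Cdt1 that prevents licensing from happening again in the same cycle, stood between them at 84.1 ± 6.0.

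The helicase subunits spread over a wide range. *Mcm3* had fold enrichments of 16.2, 13.7, 15.8 and 14.0 and a mean percentile of 98.5 ± 1.23. *Mcm2* had the lowest and the steadiest values, 8.09, 8.10, 7.95 and 7.88, at 63.7 ± 1.12. In fold enrichment these 2 subunits of one ring differed by far more than the spread over lists. Their summit pileups were closer, at 76, 61, 63 and 56 read ends for *Mcm3* and 65, 62, 61 and 48 for *Mcm2*. The background per 10 kb was 188, 177, 153 and 153 around *Mcm3* and 358, 339, 340 and 261 around *Mcm2*. The part of the background in this gap was not tested. *Mcm7* was also below the median of all genes at 69.6 ± 3.55, with summit pileups of 107, 91, 120 and 83. *Mcm4*, *Mcm5* and *Mcm6* had mean percentiles between 83.5 and 88.0.

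Of the genes that start the helicase, *Gins4*, a subunit of the GINS complex, was the highest of all 47 genes, with fold enrichments of 16.2, 16.4, 15.2 and 15.8 and a mean percentile of 99.5 ± 0.384. *Mcm10*, which acts as the helicase is set moving, was close to it at 98.7 ± 0.919. *Cdc45*, the third part of the active helicase, was the lowest of this group, at 9.80, 11.99, 9.41 and 9.91 and a mean percentile of 81.1 ± 7.30. The kinase pair *Cdc7* and *Dbf4* had mean percentiles of 84.1 and 84.7.

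The clamp and its loader had a median of 89.5. *Rfc3* was the highest, at 12.5, 15.5, 14.2 and 13.6 and a mean percentile of 96.8 ± 2.60, and *Rfc4* the lowest, at 11.8, 10.6, 9.77 and 10.3 and 83.8 ± 5.01. *Pcna*, the clamp itself, had fold enrichments of 11.3, 10.8, 10.6 and 11.5 and a mean percentile of 86.5 ± 3.20. The single-strand binding complex RPA, which protects unwound DNA, had the highest median of any group, 97.8. Its small subunit *Rpa3* had fold enrichments of 16.1, 15.8, 15.6 and 15.1 at 99.4 ± 0.173, and *Rpa2* was the lowest at 91.0 ± 6.02.

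Among the polymerases and primase, *Pold2*, the second subunit of polymerase delta, had fold enrichments of 13.5, 14.8, 12.8 and 16.2 and a mean percentile of 97.1 ± 2.74. *Pold1*, the catalytic subunit of the same enzyme, was the lowest of the group at 7.67, 7.65, 7.83 and 7.81 and 61.1 ± 2.28. The closeness of these values joins peaks at different starts of *Pold1*, since the K43M 2 value came from the first start and the others from an inner one. At the first start (chr7:44548441-44549134) the fold enrichment was 6.13, 7.07, 7.43 and 7.81, and at the inner start (chr7:44533995-44534671) it was 7.67, 7.65, 7.83 and 6.25. *Pole2*, the second subunit of polymerase epsilon, was next at 67.6 ± 10.6. In the lagging strand pair, the ligase *Lig1* stood at 96.4 ± 3.50 and the flap endonuclease *Fen1* at 67.0 ± 12.6. The *Lig1* value also joins peaks at different starts, since WT unnumbered was read at the upstream starts and the other lists at an inner one. At the upstream starts its percentiles were 93.3, 89.8, 85.4 and 78.3, and at the inner start 75.5, 93.3, 99.4 and 99.4.

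The enzymes of nucleotide supply had the lowest median percentile of any group. *Rrm1*, the large subunit of ribonucleotide reductase, was the highest of them, with fold enrichments of 9.67, 10.7, 8.69 and 9.33 and a mean percentile of 76.7 ± 6.10. *Rrm2*, its small subunit, had 5.28, 7.26, 6.86 and 6.88 at 46.7 ± 13.9, and thymidylate synthase (*Tyms*) had 7.21, 7.14, 6.06 and 5.0 at 42.5 ± 15.5. The summit pileup of *Rrm2* was 56, 59, 65 and 47 read ends, against medians of 68, 62, 65 and 57.5 over the 47 genes. The background around *Rrm2* was 490, 363, 431 and 299 per 10 kb, against medians of 246, 202, 209 and 184, and its part was not tested. *Tk1* was the lowest of the 47 genes at 41.1 ± 10.6 over the 3 lists in which it had a peak. *Rrm2*, *Tyms* and *Tk1* were also the 3 genes with a mean percentile under 50. The 15 members not described so far, *Orc1*, *Orc6*, *Gins1*, *Gins2*, *Gins3*, *Rfc1*, *Rfc2*, *Rfc5*, *Rpa1*, *Pola1*, *Pola2*, *Prim1*, *Prim2*, *Pold3* and *Pole*, had mean percentiles from 76.2 (*Pola2*) to 97.8 (*Rpa1*).

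**Figure D2:**
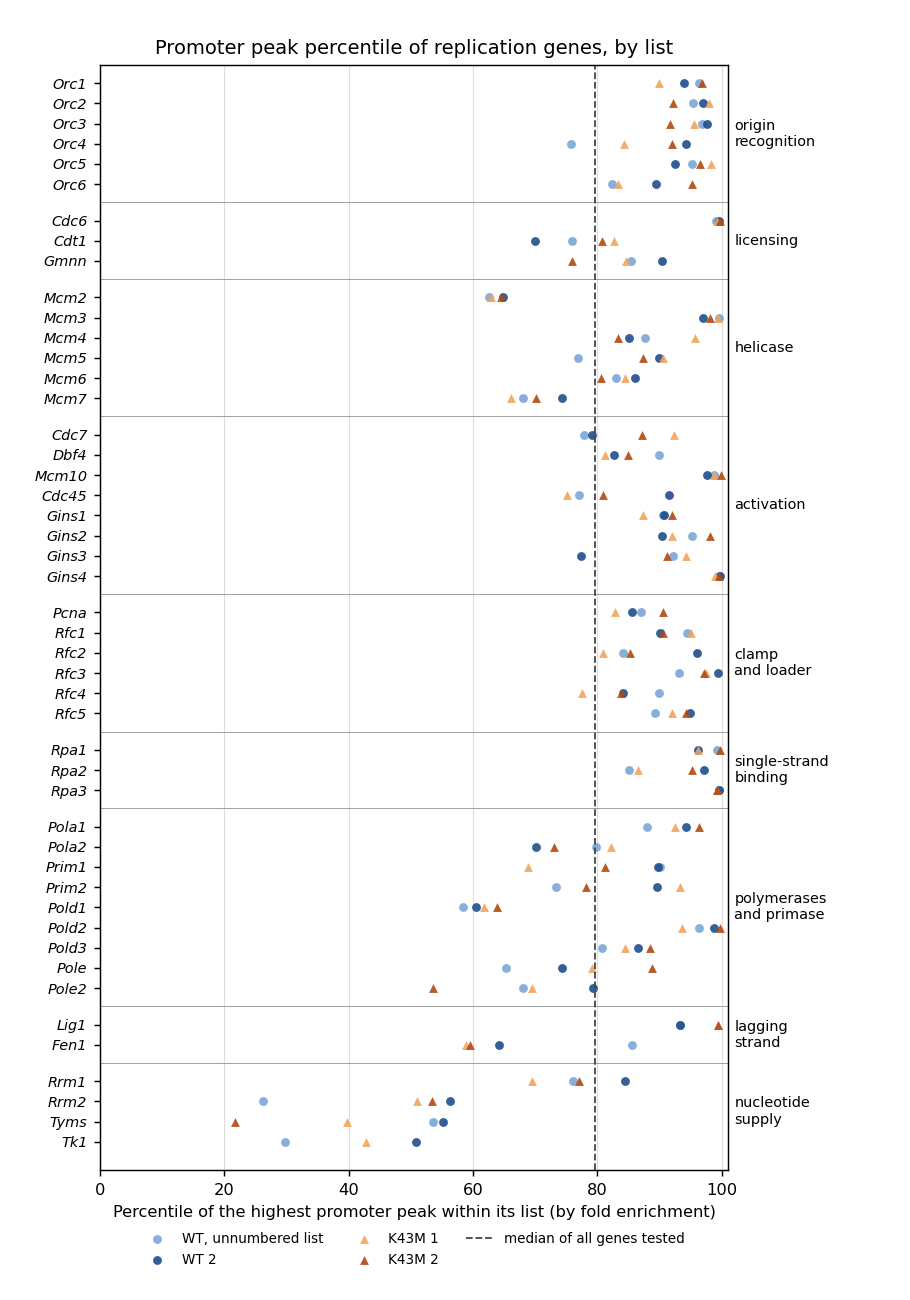
Percentile of the highest promoter peak among all peaks of its list by fold enrichment (horizontal axis) for each of the 47 genes, grouped by role. Circles are the 2 WT lists, triangles the 2 K43M lists and the dashed line the median of all genes tested, 79.6; *Cdc6*, *Gins4* and *Rpa3* sit at the right edge in all lists and *Rrm2*, *Tyms* and *Tk1* far to the left.

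The second question was whether loss of the kinase activity of CDK6 went with a change in these promoters. Fold enrichments, on the log2 scale and quantile normalised, were compared by limma with Benjamini-Hochberg adjustment over all 10446 genes. None of the 46 genes passed an adjusted p of 0.05 in either direction (0.0862% of all genes were called higher in K43M and 0.0287% lower). The smallest adjusted p among them was 0.301. At an unadjusted p under 0.05, 1 member was higher and 2 were lower, beside 4.81% and 4.67% of all genes. The median log2 difference over the members was -0.0060, with 23 genes above 0 and 23 below, and that over all genes was -0.0025. The members' differences ran from -0.40 to 0.31, and their median SE was 0.12. A single gene compared by exact permutation of 2 lists against 2 could not go below a p of 0.333.

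**Figure D3:**
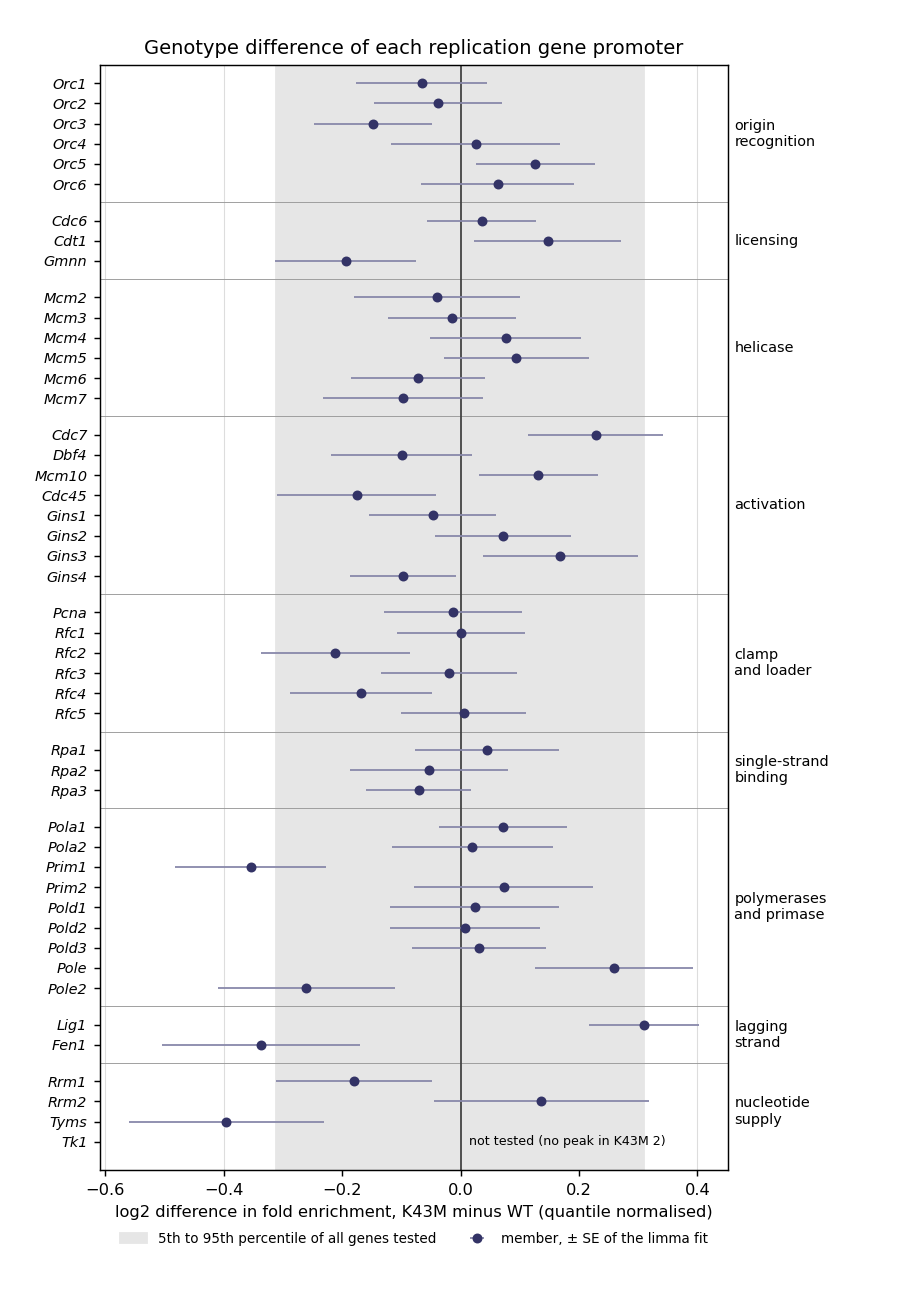
log2 difference in fold enrichment, K43M minus WT (horizontal axis), for each gene tested, with the SE of the limma fit as bars. The grey band spans the 5th to 95th percentile of all 10446 genes (-0.31 to 0.31), and only *Tyms*, *Prim1* and *Fen1* lie outside it on the lower side.

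The largest difference upwards, 0.31 ± 0.09 (SE), belonged to *Lig1*, the ligase that joins Okazaki fragments (limma, adjusted p = 0.301). The highest peak of *Lig1* was not the same peak in every list. At the upstream starts (chr7:13278286-13279382 over the lists) the fold enrichment was 12.5, 11.7, 11.0 and 9.52, with both K43M lists below both WT lists. At an annotated start 25529 bp into the gene (chr7:13302641-13303236) it was 9.59, 12.4, 15.8 and 15.4, with both K43M lists above both WT lists. The summit pileup at the inner start was 32, 37, 63 and 51. With only the transcripts tagged basic in the annotation, which leaves the upstream starts, the difference was -0.25 ± 0.11 (limma, adjusted p = 0.531). The sign for *Lig1* thus depended on which of its starts was measured, and neither value passed the threshold.

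*Pole*, the catalytic subunit of polymerase epsilon, was next, with fold enrichments of 8.38, 9.21, 9.98 and 11.2. Its difference was 0.26 ± 0.13, and the groups did not overlap in fold enrichment. The summit pileups of *Pole* did overlap, at 90, 74, 87 and 70 read ends over backgrounds of 493, 357, 391 and 267 per 10 kb. The part of the background in the difference was not tested. *Cdc7* had 9.91, 9.86, 12.4 and 10.9, a difference of 0.23 ± 0.11, again without overlap. *Gins3* had 12.3, 9.62, 12.9 and 11.7 and *Cdt1* 9.64, 8.71, 10.5 and 9.87, with differences of 0.17 ± 0.13 and 0.15 ± 0.12. Neither of the last 2 differed by more than about its own error, and the lists of *Gins3* overlapped. The adjusted p of these 4 genes in limma was between 0.562 and 0.759.

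The largest difference downwards, -0.40 ± 0.16, belonged to *Tyms* (limma, adjusted p = 0.478). Its fold enrichments, given above, did not overlap between the genotypes, and its summit pileups were 32, 25, 15 and 12 read ends over backgrounds of 179, 132, 82.0 and 80.0 per 10 kb. Both the signal and the background around *Tyms* were thus lower in the K43M lists, and the part of the background in the result was not tested. The background includes the reads of the peak itself, so the signal and background are not independent readings. *Prim1*, the catalytic subunit of the primase that starts each new fragment, had 11.8, 11.7, 8.61 and 9.94, a difference of -0.35 ± 0.13 (limma, adjusted p = 0.418). Its groups did not overlap.

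*Fen1*, which removes the flaps of Okazaki fragments, had 11.0, 8.03, 7.58 and 7.40 and a difference of -0.34 ± 0.17. Here WT unnumbered alone stood apart, and WT 2 was close to the K43M lists. *Pole2* had 8.70, 9.90, 8.68 and 6.90, and *Rfc2*, a clamp loader subunit, 10.8, 13.2, 10.2 and 10.6. The differences were -0.26 ± 0.15 and -0.21 ± 0.13, and in each gene 1 list stood apart, K43M 2 in *Pole2* and WT 2 in *Rfc2*.

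By percentile, both K43M lists were above both WT lists in 7 of 46 genes, or 15.2% (24.5% of all genes), namely *Orc5*, *Cdt1*, *Cdc7*, *Mcm10*, *Pold1*, *Pole* and *Lig1*. Both were below in 8, or 17.4% (15.9% of all genes), namely *Orc3*, *Gmnn*, *Gins4*, *Rfc4*, *Rpa3*, *Prim1*, *Fen1* and *Tyms*. The place of *Pold1* and *Lig1* among the higher genes depends on the start. At the first start of *Pold1* both K43M lists were above both WT lists, at percentiles of 40.1, 54.4, 57.3 and 63.8. At its inner start K43M 2 was below both WT lists, at 58.4, 60.5, 61.7 and 44.7. At the upstream starts of *Lig1* both K43M lists were below both WT lists, at 93.3, 89.8, 85.4 and 78.3, and at its inner start both were above. With 1 list left out the downward share was not stable against that of all genes. It was 43.5% (31.8% of all genes) without WT unnumbered, 36.2% (28.9%) without K43M 2, 21.7% (27.6%) without WT 2 and 26.1% (31.9%) without K43M 1. The upward share was 28.3% (37.5%), 29.8% (40.1%), 41.3% (43%) and 37.0% (40.0%) under the same omissions. Several of these gaps were small: *Gins4* was at the 99.6th, 99.7th, 98.9th and 99.6th percentile, and *Rpa3* did not leave the upper 1% of any list.

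*Gmnn* differed more in reads than in fold enrichment. Its fold enrichment was 11.0, 11.8, 10.9 and 9.21, but its summit pileup was 54, 54, 27 and 27 read ends. The background around it was 200, 184, 79.0 and 102 read ends per 10 kb, and so was also lower in both K43M lists. That background includes the reads of the peak itself, so numerator and denominator are not independent. In limma on the log2 summit pileup, a measure added after the data had been seen, the difference was -0.91 ± 0.21 (adjusted p = 0.0958). The part of the background in this result was not tested.

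*Mcm5* was the 1 member called on the summit pileup (difference -0.99 ± 0.15, limma adjusted p = 0.0390; 0.163% of all genes were called lower on it and 0.298% higher). As with *Lig1*, different peaks were compared. In the WT lists the highest peak lay at the gene's first starts (chr8:75108587-75110061), and in the K43M lists at a region with its summits 948 and 961 bp before an inner start (chr8:75119354-75120167). At the first starts the pileup was 80, 79, 82 and 49, and at the inner region 33, 34, 43 and 32. Within the first region only K43M 2 stood apart and within the inner one the lists were close, so the call on *Mcm5* rests on the change of region. On the nearest peak its fold enrichment differed by -0.04 ± 0.15 (limma adjusted p = 0.954).

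Many promoter peaks of the replication genes were narrower in the K43M lists. Both K43M peaks were narrower than both WT peaks in 18 of 46 genes, or 39.1% (21.2% of all genes), and wider in 4, or 8.70% (14.4% of all genes). The median width of the members was 887.5, 834, 826.5 and 758 bp, and that of all genes 866, 824, 866 and 775 bp. *Mcm10* measured 871, 827, 496 and 511 bp, *Prim1* 846, 791, 685 and 537 bp and *Pole2* 750, 754, 621 and 540 bp, so that the genotypes were well apart in each. In others the gap was small, as in *Cdt1* with 1240, 1221, 1214 and 1163 bp. The wider genes were *Orc6*, *Mcm3*, *Mcm7* and *Pold3*.

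The width of a peak also changes when the caller splits 1 stretch into several, as for *Gmnn* in K43M 1, and when another peak is the highest, as for *Mcm5* and *Lig1*, both among the narrower genes. Counting instead all bases of the promoter windows under any peak, 14 of 46 genes (30.4%) had less in both K43M lists, against 21.9% of all genes. With 1 list left out the count of narrower genes was 20 to 29, with 29.5% to 49.3% of all genes called under the same settings. The width comparison was added after the data had been seen and has no test.

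Summits lay close to transcription starts. Taking for each gene the list with its best percentile, the median distance from the summit to the nearest start was 52 bp for the members and 54 bp for all genes, and 45 of 47 members (95.7%) were within 200 bp, against 83.7% of all genes. *Gins1* was 1 of the exceptions, with summits 636 to 653 bp before its first start, and the other was *Mcm5*, described above. For *Gins1* the start of *Abhd12* on the opposite strand lies 659 bp from its own. The peaks taken for *Gins1* ended before its first start in every list, and their summits lay close to the *Abhd12* start. The level given for *Gins1* is thus that of a peak at the *Abhd12* start. In 14 members (29.8%, against 18.7% of all genes) a protein-coding gene on the opposite strand began within 1000 bp upstream. The closest pairs were *Orc3* with *Rars2* (13 bp apart), *Fen1* with *Tmem258* (49 bp), and *Orc1* with *Prpf38a* and *Tk1* with *Afmid* (87 bp each). Peaks shared by such pairs cannot be assigned to 1 gene of the pair.

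Of the 43 members whose highest peaks shared bases in all lists, 3 had both K43M summits over 100 bp downstream of both WT summits (1.31% of all such genes) and 1 upstream (1.02%). This distance was chosen after the data had been seen. In *Cdc7* the WT summits lay 2 and 1 bp before a start and the K43M summits 114 and 106 bp after one, 346 bp or more downstream of the WT summits. In *Pole2* they lay 15 and 17 bp before the start in the WT lists and 255 and 275 bp after it in the K43M lists. *Fen1* (downstream) and *Gmnn* (upstream) had shifts of at least 248 and 435 bp between their own alternative starts. In all 4 genes the peaks covered both summit positions in at least 1 list, so the shift is one of the highest base within a wide open stretch.

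**Figure D4:**
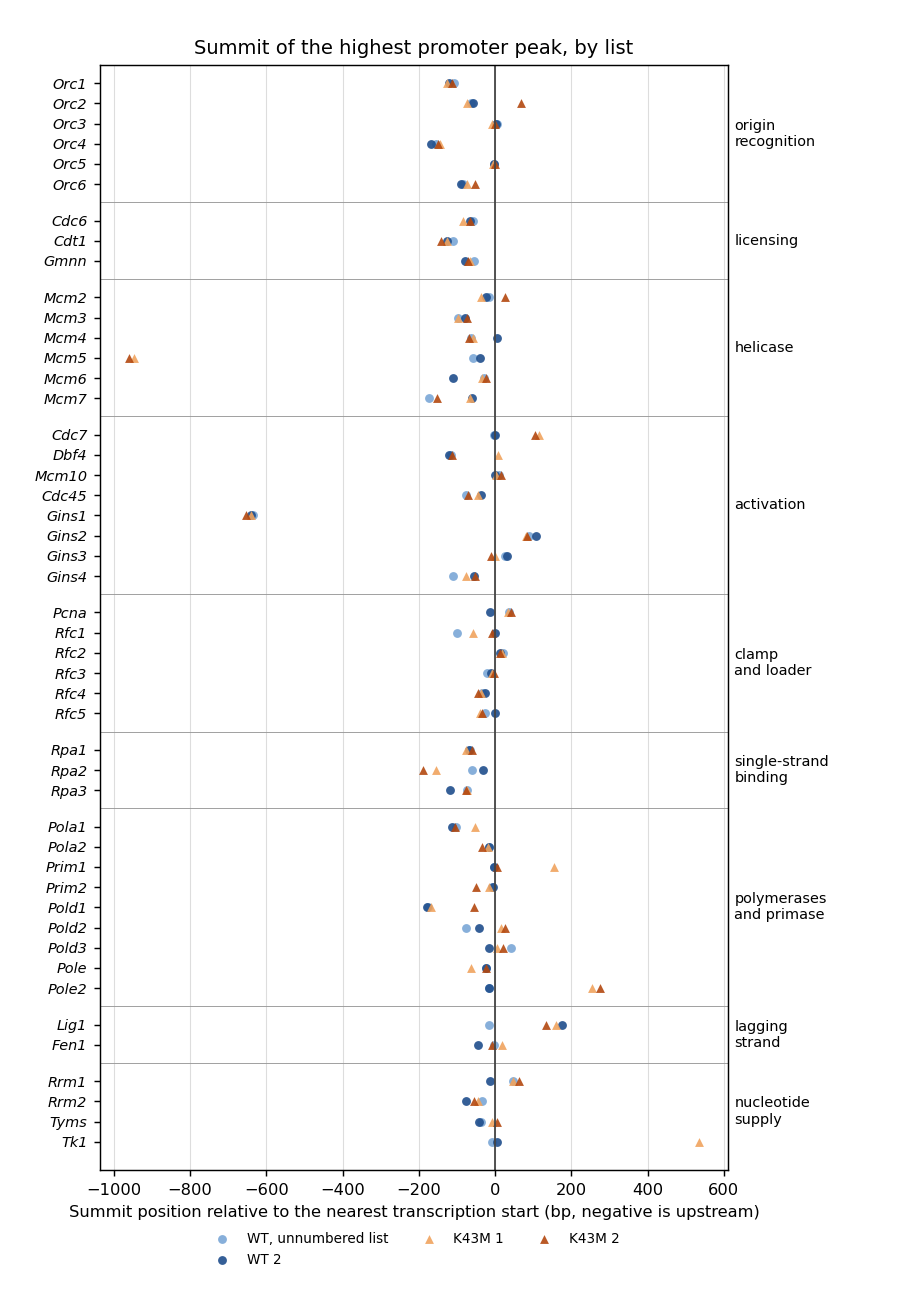
Position of the summit of the highest promoter peak relative to the nearest transcription start of the gene (horizontal axis, bp; negative is upstream) in each list. Circles are WT and triangles K43M lists; *Mcm5*, *Pole2*, *Cdc7* and *Tk1* show the K43M summits away from the WT summits, and *Gins1* lies upstream in all lists.

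Outside the promoter windows, 15 of the 47 genes held 27 peak regions in the gene body. Of these regions, 10 (37.0%) were present in all 4 lists, against 29.8% of the 18642 gene-body regions of all protein-coding genes. Another 4 (14.8%) were present in both K43M lists only (9.77% of all regions), in *Orc1*, *Gins2*, *Pole* and *Rrm2*. With the 1 region present in both WT lists only, in *Tyms*, 5 (18.5%) were in both lists of 1 genotype only, against 14.8% of all regions. The region in *Pole* (chr5:110295014-110295641) was the strongest of these 5, with fold enrichments of 12.05 and 10.0 at the 90.7th and 81.5th percentiles of the K43M lists. It lay 9024 bp from the nearest start of *Pole*, overlapped an exon of a coding transcript and no promoter window of another gene. The other 4 were weak, between the 6.98th and 43.6th percentiles of their lists.

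Both strands of the 100 bp to either side of the summit were searched, in the list with the best percentile of each gene. E2F matches were found at 10 of 47 members (21.3%), against 3.08% of the 10446 genes. These were *Orc3*, *Gmnn*, *Mcm4*, *Mcm6*, *Gins3*, *Rfc3*, *Pola1*, *Pold3*, *Pole* and *Pole2*. NFY matches (CCAATCA or CCAATGA) were found at 12 members (25.5%, against 16.2%) and ETS matches (CCGGAAGT) at 8 (17.0%, against 9.28%). SP1 matches (GGGGCGGGG) were found at 12 (25.5%, against 20.3%), and matches to the cell-cycle homology region CHR (TTTGAA or TTCGAA) at 2 (4.26%, against 5.91%). The difference from other genes was thus greatest for E2F and small or absent for SP1 and CHR, and a match is a description of the letters and not of a bound factor.

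In the 300 base RefSeq promoters, 15 of 39 members (38.5%) held an E2F match, against 5.10% of 8270 genes with a promoter peak in every list and 2.26% of all 32851 promoters of the table. The members without an entry were *Gmnn*, *Mcm4*, *Gins1*, *Gins2*, *Gins4*, *Rfc2*, *Prim2* and *Pole*. By role, E2F matches near the summit were found in 4 of 9 polymerase and primase genes and in 2 of 6 helicase genes. No match lay near the summits of the RPA, lagging strand and nucleotide supply genes, but for *Lig1* the summit searched was that at the inner start, and its RefSeq promoter held 1 E2F match. Members with and without a match near the summit had close levels. The median of their mean percentiles was 86.5 for the 10 with a match and 86.6 for the 36 without, and the median log2 difference between genotypes was 0.0060 and -0.0060. The 36 include *Mcm3*, *Mcm5* and *Mcm7*, whose RefSeq promoters held 2 E2F matches each, and for *Mcm5* the summit searched was that of the inner region. *Orc1*, *Cdc6*, *Cdt1*, *Pold1* and *Lig1*, also among the 36, held 1 each. The groups therefore do not separate promoters with E2F matches from promoters without any.

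**Figure D5:**
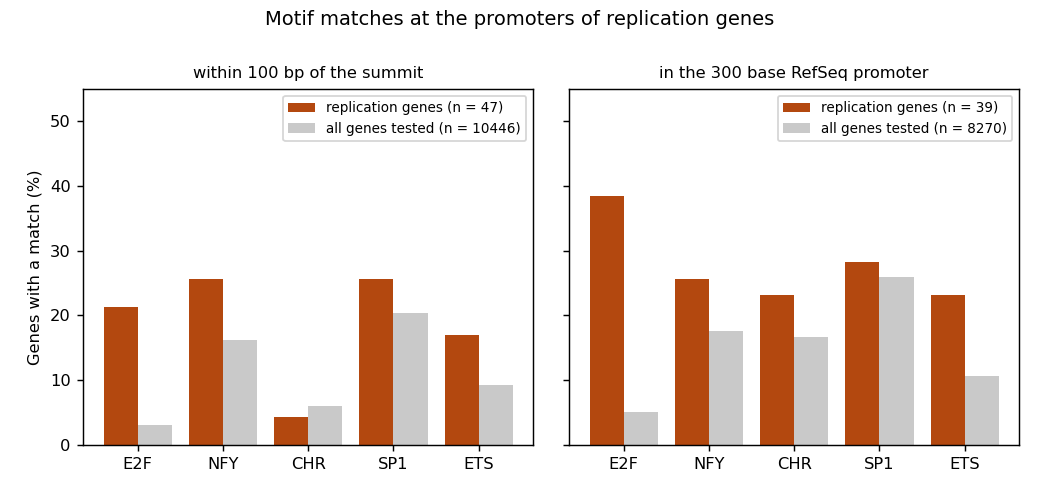
Share of genes with a motif match (vertical axis, percent) within 100 bp of the promoter summit (left) and in the 300 base RefSeq promoter (right). Dark bars are the replication genes and grey bars all genes with a promoter peak in every list; E2F separates them most, at 21.3% against 3.08% and 38.5% against 5.10%.

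Another 42 genes of the pathway were examined. They act in fork protection and the checkpoint, in origin firing, in nick and flap processing, in chromatin assembly and in nucleotide supply. Some are further helicase and polymerase subunits. All 42 had a promoter peak in every list. The median of their mean percentiles was 77.9, against 86.6 for the 46 members and 79.6 for all genes. None passed the limma threshold (smallest adjusted p 0.435), and 1 had an unadjusted p under 0.05. This was *Dck*, the deoxycytidine salvage kinase, with fold enrichments of 13.7, 13.8, 11.8 and 11.3 and a difference of -0.26 ± 0.10. By percentile, 12 of the 42 were higher in both K43M lists (24.5% of all genes) and 4 lower (15.9%). The higher ones included *Nasp*, a histone chaperone, with 7.70, 8.11, 9.09 and 9.87, and *Pole3*, a further subunit of polymerase epsilon, with 10.0, 10.7, 11.9 and 12.2.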

How the data were processed

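The 47 genes and all lists were chosen with earlier results of these data known. According to the labels and methods, the authors trimmed reads (Trimmomatic 0.36), aligned them to mm10 (bwa-mem 0.7.15), removed blacklisted regions and called peaks per library with MACS2 2.1.0. The deposited values used were the fold enrichment ratio of each peak with its -log10 p and -log10 q. The fold is relative to the local background of the same library, which includes the reads of the peak itself, so it understates changes in large peaks. Pileups were recovered from fold and -log10 p by the Poisson model of MACS2, for 358 of 359 peaks of named genes. Genes came from GENCODE release M21 on chromosomes 1 to 19, X and Y, without the mitochondrial genes, which were left out after the files had been read. The main test was limma 3.58.1 (R 4.3.3) on log2 fold enrichment of genes with a promoter peak in all 4 lists, with no block, since replicate numbers mark separate lines. Its p-values rest on the spread between lines, drawn for each gene towards a trend over all genes tested. That spread includes any difference of experiment between WT unnumbered and the other lists. In simulated data of 10446 genes it called 93.6% of 94 genes changed by 1 on the log2 scale and 100% of 106 changed by 2, and also called 31 of 10246 unchanged genes. The simulation gave every gene the same spread and held no change smaller than 1. It therefore does not show how often differences of the size seen in the members would be called. Named genes were the highest and lowest of each role, the 5 largest differences each way and every member without a peak in a list; *Orc2*, *Orc3*, *Gmnn*, *Mcm5*, *Mcm7*, *Mcm10*, *Cdc7*, *Dbf4*, *Pcna*, *Pole2*, *Nasp*, *Pole3* and *Dck* were added after their values were seen, as were the values at separate starts, the summit shifts, the pileup comparison and the counts of width and covered bases. Python 3.11.15 with scipy 1.17.1 and pysam 0.24.0 was used.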

Additional observations from a re-analysis of the deposited data

How the results depend on the processing

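The alternatives changed the promoter window, the transcripts, the peak threshold, the number of peaks, the scaling, the measure, the peak taken and the libraries included. The number of members called by limma was 0 in each direction under 12 alternatives, with smallest adjusted p-values of 0.113 to 0.614, and 1 lower (*Mcm5*, adjusted p = 0.0390) on the summit pileup, added after the data were seen. Over all genes the calls ranged from 0 to 60 higher and from 1 to 23 lower, against 9 and 3, with 60 and 23 on -log10 q, 31 and 17 on the pileup, 31 and 6 without WT replicate 2 and 0 and 1 without normalisation. With 1 library left out, 46 to 47 members had a peak in all remaining lists and 0 to 1 only in lists of 1 genotype, *Tk1* without K43M replicate 1. The same omissions, added later for the percentile and width counts, gave 13 to 19 members higher (37.5% to 43% of all genes) and 10 to 20 lower (27.6% to 31.9%) by percentile, and 20 to 29 narrower (29.5% to 49.3%) and 6 to 13 wider (22.6% to 38.3%). With 1 list in a genotype, fewer values must agree. Without WT unnumbered these counts were 13, 20, 20 and 11, or 28.3%, 43.5%, 43.5% and 23.9% of the members against 37.5%, 31.8%, 33.0% and 31.8% of all genes. Without K43M replicate 1 the wider share was 23.9% of the members against 22.6% of all genes. The median percentile of the members was 84.8 with peaks of -log10 q of at least 5 and 90.2 when ranked by -log10 q. E2F matches were found at 17 members (36.2%, against 7.02% of all genes) within 250 bp of the summit. For the 5 members with the largest log2 differences in each direction and for *Gmnn*, *Mcm5* and *Dck*, 158 of 168 alternative values kept their sign. The 10 others were as follows. *Lig1* turned from 0.31 to -0.25 with basic transcripts and to -0.67 on the nearest peak, where K43M 2 was read at a weaker neighbouring peak with a fold enrichment of 5.31. *Gins3* ran from -0.0083 without WT replicate 2 to 0.34 without WT unnumbered, and *Rfc2* turned to 0.080 on the summit pileup. *Mcm5* turned from 0.094 to -0.042 with windows of 500 bp, -0.041 with basic transcripts, -0.039 on the nearest peak, -0.79 on -log10 q and -0.99 on the summit pileup, and ran from -0.035 without WT unnumbered to 0.22 without WT replicate 2. No paired analysis was possible because WT unnumbered carries no replicate number, so the genotypes share 1 number at most. Depth limits weak peaks most: the smallest summit pileup of a member was 12 read ends.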
